A study of Mus musculus with 20 samples.

Results

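The jejunal lymph node, the member of the mesenteric chain that drains the jejunum, was compared with the inguinal lymph node, which drains skin and lies outside the gut. The groups compared hold 8 of the 20 libraries of the series, chosen by the node named in each title: 4 of jejunal and 4 of inguinal nodes, each measured as bulk poly(A) RNA of a whole node. All donors were Rag1-/- mice (B6.129S7-Rag1tm1Mom/J) aged 9 weeks, with no treatment named, so the jejunal and the inguinal group share the mutation and differ by the node taken. The other 12 libraries, 4 each of duodenal, ileal and ceco-colonic nodes of the same genotype and age, show where the jejunal node differs from its nearest relatives, and they enter the shared fit, in which they add to the filter on low counts, the scaling and the estimate of the spread. Whether a library stands for an animal, a pool or a repeat of the same RNA is not given in the labels, so the tests set the nodes apart only against the spread from library to library, which may be technical.

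Mice without functional Rag1 cannot rearrange antigen receptor genes and so lack mature T and B lymphocytes. What is left in a node is its scaffold of fibroblastic reticular cells, its blood and lymphatic vessels, and macrophages, dendritic cells, innate lymphoid cells and natural killer cells. Reticular cells hold the sinuses and cords of the medulla, guide cells with chemokines and keep a memory of the body region in which they formed, in part through homeobox and T-box transcription factors. Nodes of the gut receive lymph rich in dietary lipid, vitamin A metabolites and microbial products, and their vessels carry the mucosal addressin MAdCAM-1. Ligands of L-selectin are carried by vessels of nodes of the body wall, but not by these alone. In whole nodes, fewer cells of a type and less RNA per cell cannot be told apart.

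A pair of promoters is shown because their genes encode cues for lymphocyte entry and placement that went in opposite directions here, the addressin Madcam1 higher and the follicle chemokine Cxcl13 lower in jejunal nodes. The sequences are from RefSeq (GRCm38.p6) and run from 250 bases before to 50 bases after the start, 5′ to 3′, at chr10:79664309-79664608 on the plus strand for Madcam1 and chr5:95956689-95956988 on the plus strand for Cxcl13. Capitals mark the letters AAGTG or their reverse complement CACTT, the core that homeodomain proteins of the NK-2 class such as Nkx2-3 recognise.
Madcam1: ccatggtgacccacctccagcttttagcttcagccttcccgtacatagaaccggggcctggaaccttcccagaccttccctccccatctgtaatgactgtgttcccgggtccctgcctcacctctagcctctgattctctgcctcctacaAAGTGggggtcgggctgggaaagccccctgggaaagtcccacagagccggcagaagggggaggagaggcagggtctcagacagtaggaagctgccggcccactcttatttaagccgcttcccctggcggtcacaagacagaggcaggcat
Cxcl13: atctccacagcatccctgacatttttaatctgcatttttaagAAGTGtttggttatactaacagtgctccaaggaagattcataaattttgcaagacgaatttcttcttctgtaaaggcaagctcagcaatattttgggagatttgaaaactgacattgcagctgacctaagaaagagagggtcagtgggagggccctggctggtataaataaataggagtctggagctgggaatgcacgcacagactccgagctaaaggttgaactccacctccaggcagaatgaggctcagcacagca
The search of both strands found 1 match in each window, at position -100 in Madcam1 and at position -208 in Cxcl13. Of 32851 promoters of the same length, 46.4% held at least 1 match, so the letters alone do not set either gene apart, and a match is not a binding site.

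Depth was 304.6, 200.7, 223.1 and 176.1 M estimated counts (M, mega counts) in jejunal libraries 1 to 4, against 175.1, 294.2, 187.6 and 148.2 M in inguinal libraries 1 to 4. Levels are CPM, counts per M after TMM scaling, so 1 CPM stands for at least 148 counts; they are not divided by gene length and are compared only within a gene. Rag1 itself stood at 2.502 ± 0.232 CPM in jejunal and 3.17 ± 0.251 CPM in inguinal nodes (mean ± SD, n = 4 each, as for all such pairs here), which checks no label because every mouse carried the mutation. Marker lists of neighbouring tissues differed between libraries. Adipocyte genes summed to 1335, 3691, 1176 and 1177 CPM in jejunal libraries 1 to 4, against 1458, 374, 368 and 606 CPM in inguinal libraries 1 to 4. Jejunal library 2 and inguinal library 1 were thus the high ones of their groups. Pancreatic acinar genes summed to 112 CPM in jejunal library 1 and to 15.9 to 20.97 CPM in the other 3, against 11.9 to 14.6 CPM in inguinal libraries. Mesothelial genes summed to 17.4 to 32.6 CPM in jejunal libraries, highest in library 2, against 13.3 to 16.6 CPM in inguinal libraries. Among the defining markers of these tissues, Krt5, Krt14 and Krt15 of skin epithelium were too low to be tested.

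**Figure D1:**
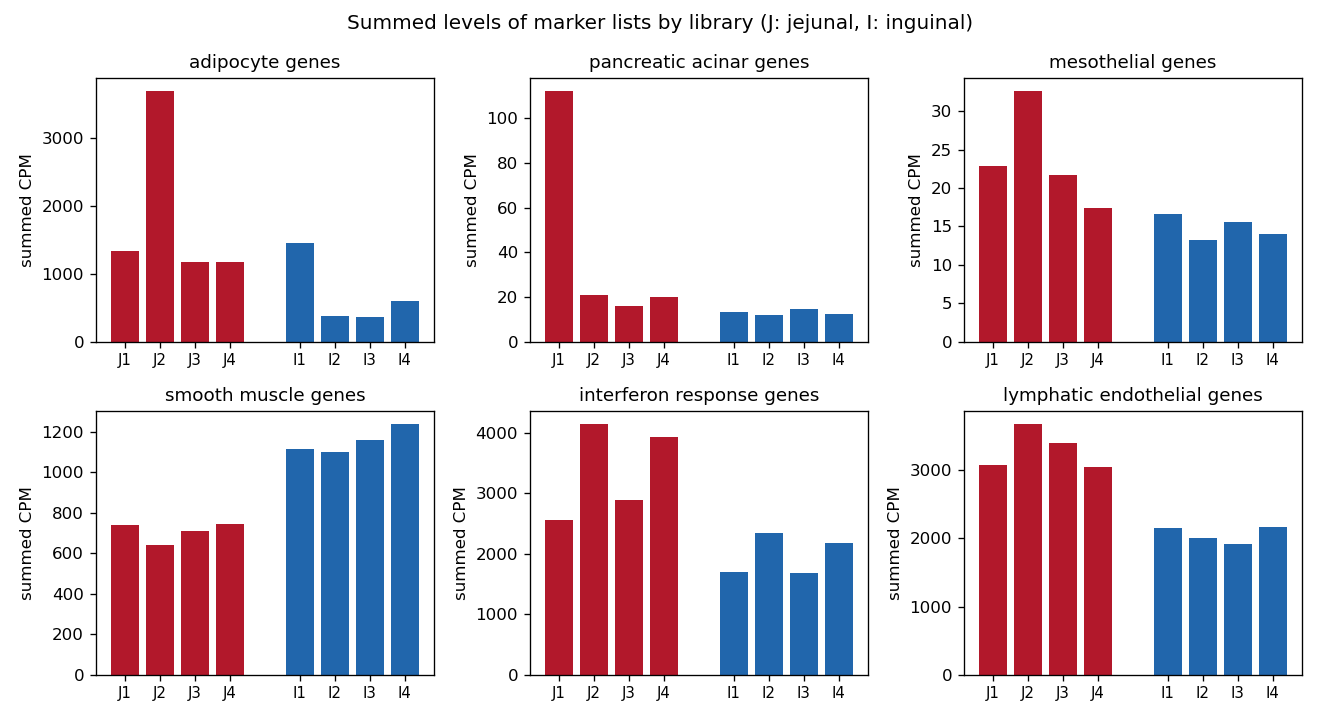
Summed CPM of 6 marker lists in each jejunal (J1 to J4, red) and inguinal (I1 to I4, blue) library; bars start at 0. The adipocyte bar of J2 reaches 3691 CPM and that of I1 1458 CPM, and interferon response genes reach 4147 and 3928 CPM in J2 and J4.

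The jejunal and inguinal nodes differed widely. Of 29411 genes tested, 6157 were called at an adjusted p under 0.05 (20.9%), 3350 of them higher in jejunal nodes (11.4%) and 2807 lower (9.54%), by the quasi-likelihood test of edgeR with p-values adjusted after Benjamini and Hochberg. At least a 2-fold difference was reached by 1950 called genes (6.63%), 1118 higher (3.8%) and 832 lower (2.83%). The first principal component of the 8 libraries held 45.6% of their variance in log2 CPM and separated the groups, with jejunal libraries at -49.8 to -64.24 and inguinal libraries at 50.25 to 58.28. The second held 13% and spread the jejunal group, with library 2 at 41.06 and library 4 at -60.17. The median log2 fold change over all genes was 0.00574. Fold changes are given as log2 of jejunal over inguinal with the model's standard error (SE), so a positive one means higher in jejunal nodes. For 7103 genes (24.2%) the libraries of the 2 groups did not overlap, which is the background for every statement of non-overlap here. Some gene lists are given with 0 calls in a direction in the main fit. Unless other values stand beside such a 0, 0 members in that direction had an unadjusted p under 0.05 in edgeR. DESeq2 and limma-voom then called 0 as well. Counts of 1 or 2 members in a direction changed by 1 or 2 in several of the alternative fits.

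**Figure D2:**
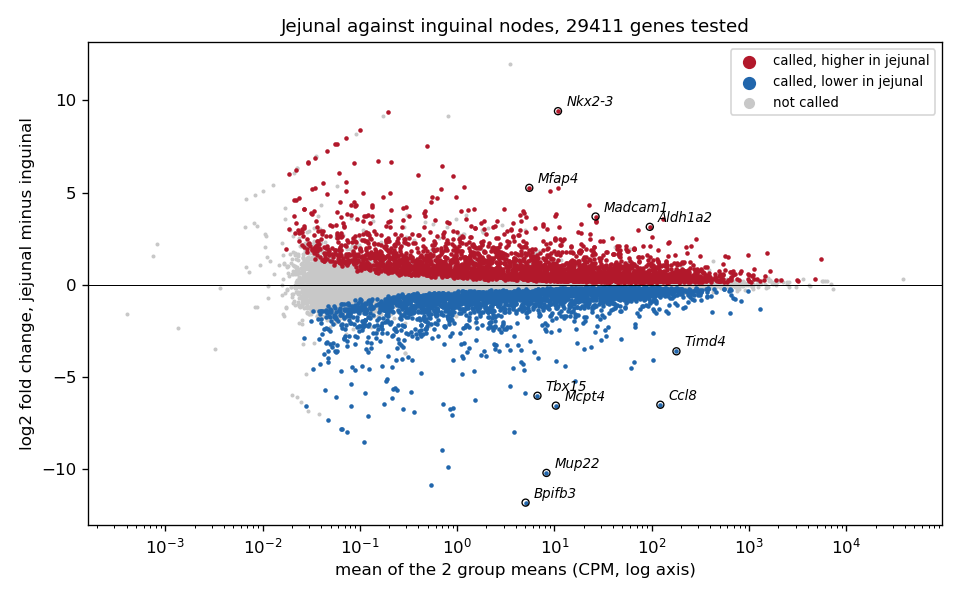
Each point is a gene, placed by the mean of the jejunal and inguinal mean CPM (log axis) and by its log2 fold change, jejunal minus inguinal; called genes are red where higher and blue where lower in jejunal nodes, and gray genes were not called. Nkx2-3 lies highest among the labelled genes at 9.41, and Ccl8 and Tbx15 lie near -6.50 and -6.01.

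Transcription factors that mark body regions were called in both directions. Some factors of gut mesenchyme, such as Nkx2-3, were counted in jejunal libraries and hardly in inguinal ones. Some factors of limb and body wall, such as Tbx15, showed the reverse. Barx1, Pitx1, Nkx2-5 and Hand1 of this list were too low to be tested. Of 42 regional transcription factors tested, 13 were called higher and 12 lower, with a median log2 fold change of -0.16. Nkx2-3 (ENSMUSG00000044220), a homeodomain factor of gut and spleen mesenchyme and of vessels, stood at 22.4, 20.5, 19.98 and 23.99 CPM in jejunal nodes, against 0.0486, 0.0130, 0.0306 and 0.0452 CPM in inguinal nodes. All 4 jejunal libraries held it at a similar level and every inguinal library was near 0 (log2 fold change 9.41, SE 0.243, adjusted p = 6.50e-18). Tcf21, a basic helix-loop-helix factor of visceral mesenchyme, stood at 1.27, 1.59, 1.398 and 1.28 CPM in jejunal nodes, against 0, 0.0228, 0 and 0.0388 CPM in inguinal nodes. A pair of inguinal libraries had no count of it. Wt1, a zinc-finger factor of mesothelium and the mesenchyme beneath it, had 1.795, 2.87, 1.59 and 1.92 CPM in jejunal nodes, against 0.173, 0.140, 0.102 and 0.0775 CPM in inguinal nodes, again without overlap (log2 fold change 4.03, SE 0.260, adjusted p = 8.85e-10). Jejunal library 2, which also had the most mesothelial transcripts, was the high one, and without it the log2 fold change of Wt1 was 3.82.

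In the other direction, Tbx15, a T-box factor of limb, skin and body wall mesenchyme, stood at 0.146, 0.286, 0.246 and 0.139 CPM in jejunal nodes, against 12.1, 10.9, 15.1 and 14.5 CPM in inguinal nodes. Every inguinal library was far above the highest jejunal one (log2 fold change -6.01, SE 0.256, adjusted p = 8.91e-12). Tbx18, its relative in limb and body wall mesenchyme, had 0.391, 0.311, 0.272 and 0.290 CPM in jejunal nodes, against 6.53, 7.33, 6.74 and 8.18 CPM in inguinal nodes (log2 fold change -4.50, SE 0.266, adjusted p = 5.97e-10). Emx2, a homeobox factor of the limb girdles and the urogenital tract, and En1, a homeobox factor of the ventral limb ectoderm and dermal fibroblasts, were also counted mostly in the inguinal libraries. Emx2 reached 0.0491 CPM at most in jejunal libraries, against 1.72 to 2.001 CPM in inguinal libraries, and En1 0.0402 CPM at most, against 1.21 to 1.82 CPM. Jejunal library 3 held most of their jejunal counts, and without it the log2 fold change was -8.11 for Emx2 (main value -6.70) and -7.51 for En1 (main value -6.48). With sums of transcript counts in place of the gene table, the log2 fold change was 4.78 for Wt1 and -6.64 for Tbx15.

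Hox genes, which encode position along the body axis in 4 clusters, differed most at posterior members. Of 31 Hox genes tested, 4 were called higher and 11 lower, with a median log2 fold change of -0.39. Hoxc10 stood at 0.0762, 0.271, 0.147 and 0.121 CPM in jejunal nodes, against 6.39, 6.53, 7.06 and 7.13 CPM in inguinal nodes, so that all 4 inguinal libraries were far above all 4 jejunal ones (log2 fold change -5.48, SE 0.387, adjusted p = 6.12e-09). Its neighbour Hoxc9 was lower in jejunal nodes as well, at 1.59 ± 0.116 CPM in jejunal and 6.63 ± 0.441 CPM in inguinal nodes (log2 fold change -2.06, SE 0.117, adjusted p = 1.42e-10). Of the A cluster, Hoxa10 stood at 0.299 ± 0.0637 CPM in jejunal and 1.84 ± 0.118 CPM in inguinal nodes (log2 fold change -2.61, SE 0.173, adjusted p = 1.28e-09). Hoxa9 stood at 1.05 ± 0.180 CPM in jejunal and 2.41 ± 0.455 CPM in inguinal nodes (log2 fold change -1.19, SE 0.147, adjusted p = 4.65e-06). Hoxa7 stood at 6.38 ± 0.727 CPM in jejunal and 10.02 ± 0.640 CPM in inguinal nodes (log2 fold change -0.65, SE 0.108, adjusted p = 1.44e-04). The anterior gene Hoxc4 went the opposite way, with 7.03 ± 0.406 CPM in jejunal and 3.39 ± 0.0996 CPM in inguinal nodes (log2 fold change 1.05, SE 0.0857, adjusted p = 1.69e-08). The most abundant members that were not called were Hoxb7, at 9.48 ± 0.615 CPM in jejunal and 8.89 ± 0.752 CPM in inguinal nodes, and Hoxc6, at 8.28 ± 1.33 CPM in jejunal and 10.5 ± 1.27 CPM in inguinal nodes.

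**Figure D3:**
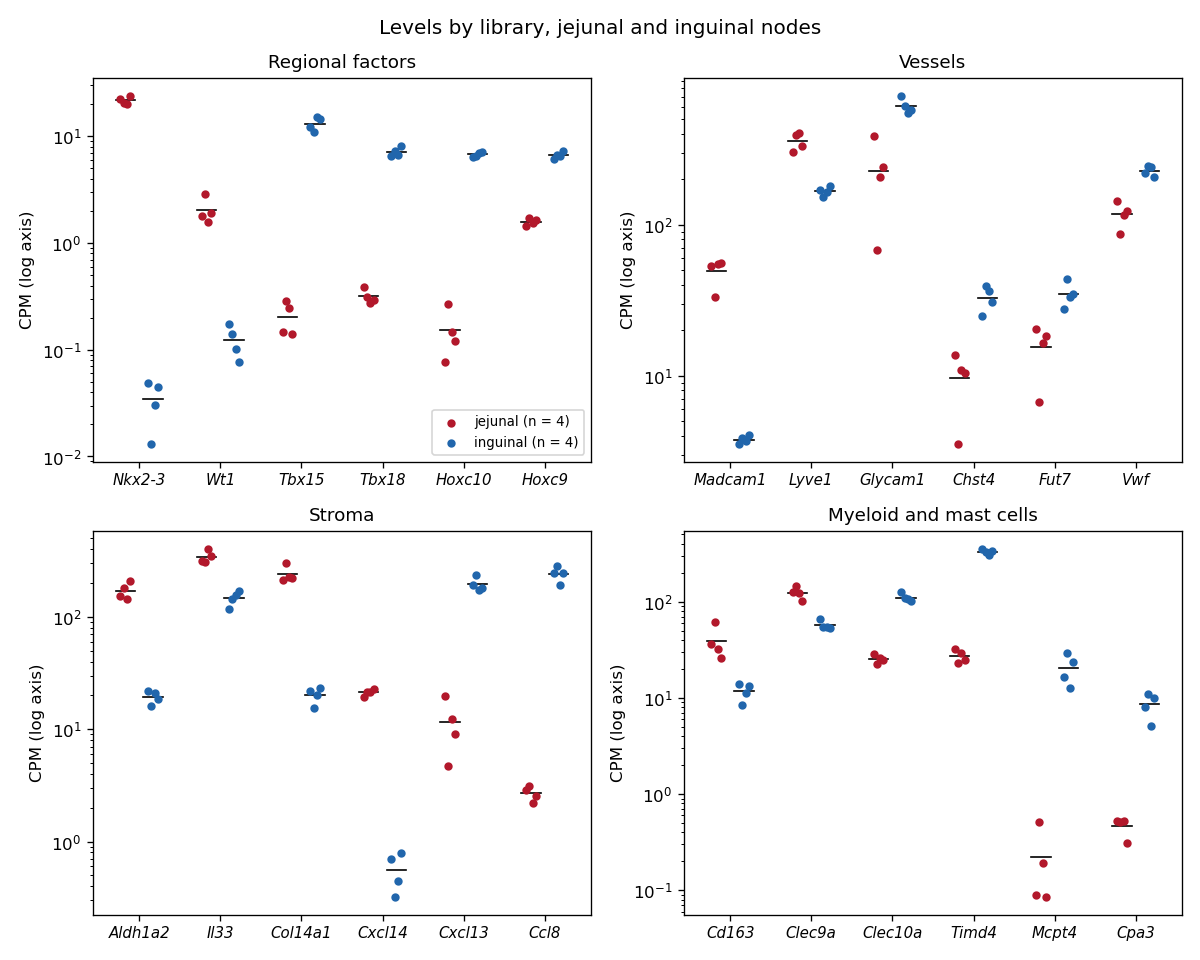
CPM of 24 genes on a log axis in each jejunal (red, left of each pair) and inguinal (blue, right) library, with a line at the group mean; values under 0.01 CPM are drawn at 0.01. Red and blue points do not overlap for any of the genes shown, and Nkx2-3 and Tbx15 are the widest pairs of the first panel.

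Among genes of lymphocyte entry, the gut addressin Madcam1 was higher in jejunal nodes, and Glycam1, Chst4 and Fut7 of the peripheral addressin were lower. Of 17 high endothelial venule genes tested, 2 were called higher and 7 lower, with a median log2 fold change of -0.27. Without jejunal library 1 or 4 or inguinal library 1 or 2, the higher count was 1. Madcam1 (ENSMUSG00000020310), which holds gut-homing lymphocytes through integrin alpha4 beta7, stood at 53.01, 33.3, 54.5 and 55.6 CPM in jejunal nodes, against 3.52, 3.85, 3.67 and 4.05 CPM in inguinal nodes. Every jejunal library was above every inguinal one, and library 2 was the low one among the jejunal libraries (log2 fold change 3.70, SE 0.185, adjusted p = 6.05e-11). Glycam1, a secreted mucin that carries L-selectin ligands, stood at 385, 68.3, 206 and 241 CPM in jejunal nodes, against 714, 613, 549 and 579 CPM in inguinal nodes. The groups did not overlap, but jejunal library 2 was far below the other 3 (log2 fold change -1.45, SE 0.315, adjusted p = 0.00225). Chst4, the sulfotransferase that completes L-selectin ligands on high endothelial venules, had 13.8, 3.51, 10.9 and 10.3 CPM in jejunal nodes, against 24.6, 39.3, 36.2 and 30.6 CPM in inguinal nodes (log2 fold change -1.76, SE 0.309, adjusted p = 3.32e-04). Fut7, the fucosyltransferase of the same ligands, had 20.4, 6.71, 16.5 and 18.4 CPM in jejunal nodes, against 27.6, 43.4, 32.95 and 34.6 CPM in inguinal nodes (log2 fold change -1.16, SE 0.231, adjusted p = 9.74e-04). For both, jejunal library 2 was again the lowest. Without jejunal library 2 the log2 fold changes were -1.15 for Glycam1, -1.48 for Chst4 and -0.91 for Fut7, all still called. Enpp2, which makes lysophosphatidic acid at these vessels and belongs to the follicular and marginal reticular list, was lower too, at 510.2 ± 96.5 CPM in jejunal and 844 ± 72.2 CPM in inguinal nodes (log2 fold change -0.73, SE 0.103, adjusted p = 2.30e-05). The sialyltransferase St3gal4 was not called, at 70.9 ± 2.65 CPM in jejunal and 66.4 ± 3.82 CPM in inguinal nodes.

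Blood endothelial genes were called about as often as all genes. Of 20 blood endothelial genes tested, 2 were called higher and 3 lower, with a median log2 fold change of 0.08. Together these were 5 of 20, a share near the 20.9% of all genes, and 4 were called higher with only the 2 groups in the fit or with the replicate block. Aqp1, a water channel of capillary endothelium, was lower in jejunal nodes at 159.8 ± 23.97 CPM in jejunal and 309 ± 25.4 CPM in inguinal nodes (log2 fold change -0.95, SE 0.0993, adjusted p = 5.20e-07). The arterial ephrin Efnb2 was lower too, at 22.5 ± 1.995 CPM in jejunal and 39.8 ± 1.04 CPM in inguinal nodes (log2 fold change -0.82, SE 0.0879, adjusted p = 6.96e-07). Its venous receptor partner Ephb4 was higher, with 93.1 ± 6.41 CPM in jejunal and 67.1 ± 2.64 CPM in inguinal nodes (log2 fold change 0.47, SE 0.0817, adjusted p = 2.19e-04). Kdr, the main receptor for vascular endothelial growth factor, was higher as well, at 301 ± 30.3 CPM in jejunal and 215 ± 14.4 CPM in inguinal nodes (log2 fold change 0.49, SE 0.0911, adjusted p = 4.93e-04). The pan-endothelial adhesion gene Pecam1 was not called, at 412 ± 28.2 CPM in jejunal and 446 ± 34.8 CPM in inguinal nodes. Among haemostasis genes, Vwf, the platelet adhesion protein of endothelium, stood at 142, 87.1, 116 and 123 CPM in jejunal nodes, against 220.1, 244, 242 and 206 CPM in inguinal nodes. Inguinal libraries were all above jejunal ones (log2 fold change -0.96, SE 0.131, adjusted p = 1.50e-05). F8, clotting factor VIII, moved the other way with 230.0 ± 44.2 CPM in jejunal and 125 ± 9.805 CPM in inguinal nodes (log2 fold change 0.87, SE 0.152, adjusted p = 2.35e-04).

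Lymphatic endothelial genes were mostly higher in jejunal nodes. Of 18 lymphatic endothelial genes tested, 10 were called higher and 1 lower, with a median log2 fold change of 0.47. The 1 lower call was lost without jejunal library 1, 2 or 4 or inguinal library 2, 3 or 4. Their summed level was 3078, 3681, 3398 and 3042 CPM in jejunal libraries 1 to 4, against 2157, 2007, 1914 and 2173 CPM in inguinal libraries 1 to 4. Marco alone, which macrophages also express, made 1353 to 1542 CPM of the jejunal sums and 640.0 to 889 CPM of the inguinal ones. The sums are thus no measure of lymphatic endothelium alone. Lyve1, a hyaluronan receptor of lymphatic vessels and some macrophages, stood at 302, 395, 405 and 329 CPM in jejunal nodes, against 169.8, 153, 165 and 181 CPM in inguinal nodes. No inguinal library reached the lowest jejunal one (log2 fold change 1.10, SE 0.179, adjusted p = 1.27e-04). Marco, a scavenger receptor of medullary sinus endothelium and macrophages, had 1395, 1542, 1513 and 1353 CPM in jejunal nodes, against 856, 811, 640.0 and 889 CPM in inguinal nodes (log2 fold change 0.86, SE 0.128, adjusted p = 4.24e-05). Flt4, the receptor for the lymphatic growth factor Vegfc, had 166 ± 23.6 CPM in jejunal and 99.9 ± 6.81 CPM in inguinal nodes (log2 fold change 0.73, SE 0.159, adjusted p = 0.00199). Stab1, a scavenger receptor of sinus cells, had 330.2, 406, 341 and 349 CPM in jejunal nodes, against 249, 214, 227 and 199.6 CPM in inguinal nodes (log2 fold change 0.68, SE 0.102, adjusted p = 4.40e-05). Foxc2, a factor of valve-forming lymphatics, had 4.39 ± 0.969 CPM in jejunal and 2.15 ± 0.207 CPM in inguinal nodes (log2 fold change 1.03, SE 0.231, adjusted p = 0.0026). Reln, a secreted glycoprotein of collecting lymphatics, had 39.97 ± 9.18 CPM in jejunal and 19.7 ± 5.55 CPM in inguinal nodes (log2 fold change 1.02, SE 0.214, adjusted p = 0.00151). Nrp2, a co-receptor of lymphatic endothelium, was not called at 175 ± 11.2 CPM in jejunal and 193 ± 16.2 CPM in inguinal nodes.

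Genes of retinoic acid, the vitamin A product that imprints gut homing, were called in both directions. Of 24 retinoid genes tested, 8 were called higher and 6 lower, with a median log2 fold change of 0.08. Aldh1a2 (ENSMUSG00000013584), which makes retinoic acid, stood at 153, 182, 143 and 207 CPM in jejunal nodes, against 22.03, 16.1, 20.9 and 18.6 CPM in inguinal nodes. Jejunal libraries were all far above inguinal ones (log2 fold change 3.14, SE 0.146, adjusted p = 1.61e-11). Lrat, which stores retinol as esters, stood at 18.2, 11.8, 16.7 and 23.1 CPM in jejunal nodes, against 2.91, 2.54, 3.25 and 3.47 CPM in inguinal nodes, without overlap (log2 fold change 2.52, SE 0.185, adjusted p = 6.76e-09). Stra6, a receptor for the plasma retinol carrier, had 7.69 ± 2.24 CPM in jejunal and 2.36 ± 0.651 CPM in inguinal nodes (log2 fold change 1.70, SE 0.211, adjusted p = 5.84e-06). Rarb, a nuclear receptor that retinoic acid itself induces, had 3.12 ± 0.496 CPM in jejunal and 0.600 ± 0.157 CPM in inguinal nodes (log2 fold change 2.38, SE 0.215, adjusted p = 1.03e-07). The degrading enzyme Cyp26b1 went the other way. It stood at 38.2, 36.9, 29.6 and 69.8 CPM in jejunal nodes, against 79.2, 88.5, 132 and 133 CPM in inguinal nodes, where jejunal library 4 was the high one of its group and came closest to the inguinal libraries (log2 fold change -1.31, SE 0.336, adjusted p = 0.00814). All 6 members called lower, with log2 fold changes of -1.39 to -0.32, were Cyp26b1, the retinoic acid receptors Rara and Rarg, the retinol-oxidising enzymes Rdh10 and Adh1, and the binding protein Crabp2, which stayed at or under 0.0618 CPM in every library of the 2 groups. The partner receptors Rxra and Rxrb were not called.

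Medullary and T-zone reticular cell genes were called in both directions. Of 14 medullary reticular cell genes tested, 5 were called higher and 3 lower, with a median log2 fold change of 0.18. The count of lower members was 1 without jejunal library 3, jejunal library 4, inguinal library 2 or inguinal library 3. Il33, an alarmin that feeds type 2 innate lymphoid cells, stood at 314, 309, 404 and 350.3 CPM in jejunal nodes, against 117, 145, 157 and 171 CPM in inguinal nodes. The groups did not overlap (log2 fold change 1.22, SE 0.105, adjusted p = 3.75e-08). Col14a1, a fibril-associated collagen, had 211, 302, 228 and 223 CPM in jejunal nodes, against 21.9, 15.5, 20.2 and 23.5 CPM in inguinal nodes (log2 fold change 3.57, SE 0.129, adjusted p = 5.63e-13). Il6, a cytokine that supports plasma cells in medullary cords, had 2.31 ± 0.521 CPM in jejunal and 0.382 ± 0.0626 CPM in inguinal nodes (log2 fold change 2.59, SE 0.221, adjusted p = 4.65e-08). Nr4a2, an orphan nuclear receptor, had 23.7 ± 3.37 CPM in jejunal and 7.14 ± 1.29 CPM in inguinal nodes (log2 fold change 1.73, SE 0.128, adjusted p = 5.48e-09). Nr4a3, of the same receptor family and induced by stimulation, had 147 ± 38.97 CPM in jejunal and 57.5 ± 4.301 CPM in inguinal nodes (log2 fold change 1.35, SE 0.169, adjusted p = 5.96e-06). Cxcl12, a chemokine of medullary and perivascular stroma, was not called at 1085 ± 133 CPM in jejunal and 1119.5 ± 102 CPM in inguinal nodes. Of the T-zone list, Ccl21a, a ligand of the receptor Ccr7 whose near-identical copies share reads, stood at 2069, 1172, 2187 and 2743 CPM in jejunal nodes, against 823, 1216, 1559 and 1215 CPM in inguinal nodes. Jejunal library 2 lay within the inguinal range (log2 fold change 0.76, SE 0.206, adjusted p = 0.0108), and without jejunal library 4 the call was lost (adjusted p = 0.0549). The chemokine Ccl19 of the same list was not called, at 311 ± 82.1 CPM in jejunal and 250 ± 37.9 CPM in inguinal nodes. Of 11 T-zone reticular cell genes tested, 3 were called higher and 3 lower, with a median log2 fold change of 0.06. Pdpn, the glycoprotein that reticular cells use to relax or contract, was higher at 18.2 ± 2.76 CPM in jejunal and 11.9 ± 0.693 CPM in inguinal nodes (log2 fold change 0.62, SE 0.0886, adjusted p = 2.60e-05). Grem1, a BMP antagonist of reticular cells, was higher as well at 75.5 ± 19.9 CPM in jejunal and 36.2 ± 7.23 CPM in inguinal nodes (log2 fold change 1.06, SE 0.173, adjusted p = 1.22e-04). Tnfsf13b, the B cell survival factor BAFF, was lower at 37.4 ± 4.23 CPM in jejunal and 66.2 ± 6.84 CPM in inguinal nodes (log2 fold change -0.83, SE 0.0964, adjusted p = 2.14e-06).

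Follicular and marginal reticular genes were called as often higher as lower. Of 11 follicular and marginal reticular cell genes tested, 4 were called higher and 4 lower, with a median log2 fold change of 0.17. The highest log2 fold change of the list, 3.70, was that of Madcam1, which is counted among the high endothelial venule genes too. Which cells of the node held Madcam1 was not tested. Cxcl13 (ENSMUSG00000023078), which draws B cells and lymphoid tissue inducer cells, stood at 19.7, 4.68, 12.4 and 9.15 CPM in jejunal nodes, against 191, 235, 174 and 182 CPM in inguinal nodes. Each inguinal library was well above each jejunal one, and jejunal library 2 was the lowest of all (log2 fold change -4.09, SE 0.289, adjusted p = 1.13e-08). Tnfsf11, the cytokine RANKL of marginal reticular cells, was higher in jejunal nodes at 43.9 ± 6.13 CPM in jejunal and 21.4 ± 1.63 CPM in inguinal nodes (log2 fold change 1.03, SE 0.111, adjusted p = 7.74e-07). Of the high endothelial venule list, Ch25h, the enzyme that starts synthesis of the oxysterol ligand of Ebi2, was lower at 11.6 ± 4.203 CPM in jejunal and 21.3 ± 4.199 CPM in inguinal nodes (log2 fold change -0.88, SE 0.212, adjusted p = 0.00461).

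Chemokines with the widest differences were not those of the T zone. Of 36 chemokine ligands tested, 10 were called higher and 10 lower, with a median log2 fold change of 0.04. Ccl8 (ENSMUSG00000009185), a macrophage chemokine that attracts Ccr8-bearing cells in mouse, stood at 2.85, 3.12, 2.19 and 2.57 CPM in jejunal nodes, against 244, 286, 191 and 248 CPM in inguinal nodes. All inguinal libraries were high and all jejunal libraries low, with nothing between (log2 fold change -6.50, SE 0.259, adjusted p = 1.30e-11). Cxcl14, a chemokine of epithelium and fibroblasts, stood at 19.4, 21.4, 21.6 and 22.8 CPM in jejunal nodes, against 0.696, 0.319, 0.444 and 0.795 CPM in inguinal nodes, the reverse pattern (log2 fold change 5.27, SE 0.218, adjusted p = 5.34e-12). Cxcl10, an interferon-induced ligand of Cxcr3, had 136 ± 27.2 CPM in jejunal and 44.5 ± 10.2 CPM in inguinal nodes (log2 fold change 1.61, SE 0.211, adjusted p = 1.16e-05). Ccl22, made by mature dendritic cells, had 812 ± 144 CPM in jejunal and 507 ± 46.98 CPM in inguinal nodes (log2 fold change 0.68, SE 0.153, adjusted p = 0.00265). Ccl12, a monocyte chemokine, was lower at 6.33 ± 1.05 CPM in jejunal and 15.1 ± 3.21 CPM in inguinal nodes (log2 fold change -1.25, SE 0.182, adjusted p = 3.55e-05). Of 23 chemokine receptors tested, 6 were called higher and 6 lower, with a median log2 fold change of -0.23. Ccr10, which binds the skin chemokine Ccl27, had 0.808, 0.942, 0.947 and 0.944 CPM in jejunal nodes, against 11.98, 8.99, 11.5 and 13.2 CPM in inguinal nodes (log2 fold change -3.65, SE 0.150, adjusted p = 3.37e-12). Ccr8 was lower with 2.72 ± 0.673 CPM in jejunal and 6.79 ± 0.701 CPM in inguinal nodes (log2 fold change -1.32, SE 0.199, adjusted p = 5.20e-05). The monocyte receptor Ccr2 was lower with 94.3 ± 15.1 CPM in jejunal and 204 ± 21.6 CPM in inguinal nodes (log2 fold change -1.11, SE 0.108, adjusted p = 2.04e-07). Cxcr5, the receptor for Cxcl13, had 3.79, 1.68, 5.52 and 4.72 CPM in jejunal nodes, against 0.945, 0.862, 1.09 and 1.12 CPM in inguinal nodes. Jejunal library 2 was the low one of its group and still above the inguinal libraries (log2 fold change 1.97, SE 0.259, adjusted p = 1.23e-05). Ccr9, the receptor that guides cells to the small intestine, stood at 45.5, 29.1, 42.5 and 35.9 CPM in jejunal nodes, against 36.7, 25.7, 28.8 and 22.5 CPM in inguinal nodes, so the groups overlapped. Its log2 fold change was 0.43 with adjusted p = 0.0319, and the call was lost without jejunal library 1 or 3 or inguinal library 2, 3 or 4.

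Secreted modulators of Wnt and BMP signalling, which pattern mesenchyme, were called more often higher than lower. Of 41 Wnt and BMP ligand and modulator genes tested, 21 were called higher and 8 lower, with a median log2 fold change of 0.39. Wnt2b, a ligand made by mesenchyme of the gut, stood at 34.4, 31.9, 33.3 and 34.9 CPM in jejunal nodes, against 3.91, 3.11, 3.02 and 3.64 CPM in inguinal nodes. Its level was steady within each group and the groups were far apart (log2 fold change 3.30, SE 0.108, adjusted p = 1.13e-13). Sfrp4, a secreted Wnt-binding protein, was higher at 13.7 ± 2.26 CPM in jejunal and 1.39 ± 0.608 CPM in inguinal nodes (log2 fold change 3.31, SE 0.206, adjusted p = 8.85e-10). Its relative Sfrp2 was lower, at 0.957, 1.21, 1.12 and 1.26 CPM in jejunal nodes, against 15.6, 22.2, 19.1 and 21.5 CPM in inguinal nodes (log2 fold change -4.11, SE 0.220, adjusted p = 1.73e-10). Sostdc1, an antagonist of BMP and Wnt ligands, was lower at 0.709 ± 0.435 CPM in jejunal and 8.25 ± 2.02 CPM in inguinal nodes (log2 fold change -3.53, SE 0.367, adjusted p = 1.18e-06). The Wnt inhibitor Wif1 was lower at 0.625 ± 0.188 CPM in jejunal and 2.52 ± 0.579 CPM in inguinal nodes (log2 fold change -2.01, SE 0.339, adjusted p = 2.17e-04).

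Matrix glycoprotein, proteoglycan and collagen genes were called more often higher than lower in jejunal nodes, and matrix protease and inhibitor genes about as often in each direction. Of 41 matrix glycoprotein and elastic fibre genes tested, 22 were called higher and 4 lower, with a median log2 fold change of 0.47. With only the 2 groups in the fit, 8 were called lower. Mfap4, a microfibril-associated protein, stood at 7.59, 14.7, 10.1 and 10.5 CPM in jejunal nodes, against 0.302, 0.218, 0.306 and 0.310 CPM in inguinal nodes. All 4 inguinal libraries were low (log2 fold change 5.26, SE 0.400, adjusted p = 1.68e-08). Cilp, a matrix protein of cartilage and fibrous tissue, had 35.6, 39.2, 48.3 and 48.5 CPM in jejunal nodes, against 0.880, 2.08, 3.400 and 2.16 CPM in inguinal nodes (log2 fold change 4.33, SE 0.267, adjusted p = 1.44e-09). Spon1, a secreted adhesion protein, had 184 ± 12.3 CPM in jejunal and 48.8 ± 8.695 CPM in inguinal nodes (log2 fold change 1.91, SE 0.118, adjusted p = 4.52e-10). Efemp1, a fibulin, had 21.3 ± 8.14 CPM in jejunal and 3.75 ± 0.808 CPM in inguinal nodes (log2 fold change 2.51, SE 0.240, adjusted p = 2.91e-07), and jejunal library 2, with 33.3 CPM, was its high one. Of 13 small leucine-rich proteoglycan genes tested, 7 were called higher and 0 lower, with a median log2 fold change of 0.46. Among them, Lum, which spaces collagen fibrils, stood at 249, 253, 245 and 217 CPM in jejunal nodes, against 29.8, 68.3, 55.4 and 50.2 CPM in inguinal nodes (log2 fold change 2.24, SE 0.155, adjusted p = 2.82e-09). Dcn, which binds collagen and growth factors, had 1238 ± 126 CPM in jejunal and 901 ± 86.7 CPM in inguinal nodes (log2 fold change 0.46, SE 0.0866, adjusted p = 5.40e-04). Of 42 collagen genes tested, 14 were called higher and 6 lower, with a median log2 fold change of 0.16. The count of higher collagens was 9 without jejunal library 2, inguinal library 2 or inguinal library 3, and 7 without both jejunal library 2 and inguinal library 1. Col12a1, a fibril-associated collagen, had 85.8 ± 7.49 CPM in jejunal and 31.3 ± 2.196 CPM in inguinal nodes (log2 fold change 1.45, SE 0.120, adjusted p = 2.36e-08). Col1a1 and Col1a2, the chains of type I collagen, were not called, with 561 ± 66.2 CPM in jejunal and 571 ± 71.8 CPM in inguinal nodes for Col1a1. Of 32 matrix protease and inhibitor genes tested, 9 were called higher and 8 lower, with a median log2 fold change of 0.12. Without both jejunal library 2 and inguinal library 1, 5 were called higher. Mmp3, stromelysin, had 6.47 ± 1.82 CPM in jejunal and 25.5 ± 7.16 CPM in inguinal nodes (log2 fold change -1.98, SE 0.343, adjusted p = 3.02e-04). Mmp12, the macrophage elastase, had 3.93 ± 0.484 CPM in jejunal and 14.9 ± 3.27 CPM in inguinal nodes (log2 fold change -1.92, SE 0.202, adjusted p = 7.38e-07).

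Mast cell genes were strongly lower in jejunal nodes. Of 14 mast cell genes tested, 1 were called higher and 10 lower, with a median log2 fold change of -4.01. Without jejunal library 4, or with the replicate block, 2 were called higher. Mcpt4, a chymase of connective tissue mast cells, stood at 0.0894, 0.518, 0.192 and 0.0847 CPM in jejunal nodes, against 16.4, 29.1, 12.7 and 23.6 CPM in inguinal nodes. Jejunal library 2 was the highest of its group and still far under the lowest inguinal library (log2 fold change -6.54, SE 0.513, adjusted p = 6.18e-08). The tryptase gene Tpsb2 stood at 0.0662, 0.375, 0.0848 and 0.169 CPM in jejunal nodes, against 8.798, 12.6, 6.29 and 11.2 CPM in inguinal nodes (log2 fold change -5.84, SE 0.520, adjusted p = 2.57e-07). Cpa3, the mast cell carboxypeptidase, had 0.465 ± 0.104 CPM in jejunal and 8.56 ± 2.63 CPM in inguinal nodes (log2 fold change -4.19, SE 0.266, adjusted p = 1.67e-09). Cma1, another chymase, had 0.822 ± 0.0397 CPM in jejunal and 12.9 ± 4.39 CPM in inguinal nodes (log2 fold change -3.97, SE 0.214, adjusted p = 1.73e-10). Mrgprb1, a receptor gene of the list, had 0.103 ± 0.0654 CPM in jejunal and 1.69 ± 0.641 CPM in inguinal nodes (log2 fold change -4.06, SE 0.431, adjusted p = 1.04e-06). Without jejunal library 2 the log2 fold changes were -7.38 for Mcpt4 and -6.58 for Tpsb2. The receptor Kit, which innate lymphoid cells also carry, was the 1 member that was higher, at 110.2 ± 23.2 CPM in jejunal and 77.8 ± 2.92 CPM in inguinal nodes (log2 fold change 0.50, SE 0.120, adjusted p = 0.0042). Gata2 was not called at 19.01 ± 4.35 CPM in jejunal and 18.8 ± 0.340 CPM in inguinal nodes. Of 18 eosinophil and neutrophil genes tested, 1 were called higher and 6 lower, with a median log2 fold change of -0.64. Ngp, a neutrophil granule protein, had 1.11 ± 0.455 CPM in jejunal and 5.34 ± 1.76 CPM in inguinal nodes (log2 fold change -2.27, SE 0.307, adjusted p = 1.98e-05). Ltf, lactoferrin, had 0.993 ± 0.400 CPM in jejunal and 3.85 ± 0.933 CPM in inguinal nodes (log2 fold change -1.95, SE 0.303, adjusted p = 8.91e-05). The eosinophil ribonuclease gene Ear2 had 15.2 ± 2.48 CPM in jejunal and 35.2 ± 3.69 CPM in inguinal nodes (log2 fold change -1.21, SE 0.102, adjusted p = 2.89e-08).

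Macrophage genes went both ways. Of 24 macrophage genes tested, 9 were called higher and 9 lower, with a median log2 fold change of -0.12. Timd4, a phosphatidylserine receptor of resident macrophages, stood at 32.4, 23.2, 29.1 and 24.5 CPM in jejunal nodes, against 354, 329, 307 and 336 CPM in inguinal nodes. No jejunal library came near an inguinal one (log2 fold change -3.60, SE 0.149, adjusted p = 4.31e-12). Folr2, a folate receptor of resident macrophages, had 6.86 ± 0.696 CPM in jejunal and 53.9 ± 5.89 CPM in inguinal nodes (log2 fold change -2.97, SE 0.167, adjusted p = 2.11e-10). The lectin gene Cd209g had 3.42 ± 1.52 CPM in jejunal and 30.6 ± 5.08 CPM in inguinal nodes (log2 fold change -3.16, SE 0.323, adjusted p = 9.21e-07). Fcna, a ficolin of macrophages, was higher, at 109, 169, 121 and 118 CPM in jejunal nodes, against 20.9, 12.3, 14.6 and 18.04 CPM in inguinal nodes (log2 fold change 2.98, SE 0.158, adjusted p = 9.89e-11). Cd163, the haemoglobin scavenger receptor, was higher too, at 36.3, 62.1, 32.6 and 25.7 CPM in jejunal nodes, against 14.04, 8.52, 11.2 and 13.3 CPM in inguinal nodes. For both, jejunal library 2 was the highest and the groups did not overlap (for Cd163, log2 fold change 1.74, SE 0.243, adjusted p = 2.58e-05). Gpnmb, a glycoprotein of lipid-laden macrophages, had 71.2 ± 13.2 CPM in jejunal and 20.99 ± 7.84 CPM in inguinal nodes (log2 fold change 1.76, SE 0.200, adjusted p = 1.96e-06). Siglec1, the marker of subcapsular and medullary sinus macrophages, was not called at 756 ± 132 CPM in jejunal and 659 ± 72.3 CPM in inguinal nodes. Of 28 complement genes tested, 14 were called higher and 2 lower, with a median log2 fold change of 0.24. The lower count was 1 without jejunal library 2 or 4 or inguinal library 1, 2 or 3. Some higher members are shared with other lists, Fcna with the macrophage list and Cfd with the adipocyte list. Cfd stood at 266, 742, 215 and 217 CPM in jejunal nodes, against 200, 29.4, 32.2 and 84.9 CPM in inguinal nodes. C7, of the membrane attack complex, had 39.5 ± 2.65 CPM in jejunal and 7.02 ± 3.98 CPM in inguinal nodes (log2 fold change 2.49, SE 0.322, adjusted p = 1.35e-05). Cfi, the protease that degrades C3b, had 4.11 ± 0.912 CPM in jejunal and 1.02 ± 0.164 CPM in inguinal nodes (log2 fold change 2.01, SE 0.171, adjusted p = 3.92e-08). C3 itself was not called at 6829.7 ± 1019 CPM in jejunal and 5874 ± 805 CPM in inguinal nodes.

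Dendritic cell genes of the type 2 subset were mostly called lower in jejunal nodes. Of 12 type 2 dendritic cell genes tested, 1 were called higher and 8 lower, with a median log2 fold change of -0.78. The higher count was 2 without jejunal library 1 and with the replicate block. Clec10a, a lectin of dermal and type 2 dendritic cells, had 28.7, 22.4, 25.8 and 24.6 CPM in jejunal nodes, against 125, 109, 105 and 102 CPM in inguinal nodes (log2 fold change -2.12, SE 0.115, adjusted p = 8.07e-11). Mgl2, its close relative, had 9.57 ± 2.06 CPM in jejunal and 45.3 ± 6.11 CPM in inguinal nodes (log2 fold change -2.24, SE 0.187, adjusted p = 3.89e-08). Cd209a, another lectin of the subset, had 14.7 ± 6.56 CPM in jejunal and 50.1 ± 4.098 CPM in inguinal nodes (log2 fold change -1.76, SE 0.229, adjusted p = 1.06e-05). Clec4a4, an inhibitory lectin, was the 1 member called higher, at 2.55 ± 0.743 CPM in jejunal and 0.910 ± 0.0870 CPM in inguinal nodes (log2 fold change 1.49, SE 0.164, adjusted p = 1.16e-06). Of 11 type 1 dendritic cell genes tested, 2 were called higher and 2 lower, with a median log2 fold change of 0.03. Clec9a, which senses dead cells on type 1 dendritic cells, stood at 126, 147, 123 and 101 CPM in jejunal nodes, against 65.6, 54.5, 54.6 and 53.1 CPM in inguinal nodes, without overlap (log2 fold change 1.12, SE 0.106, adjusted p = 1.37e-07). Cd8a, carried by resident dendritic cells in the absence of T cells, was lower at 21.3 ± 4.91 CPM in jejunal and 54.01 ± 3.86 CPM in inguinal nodes (log2 fold change -1.34, SE 0.135, adjusted p = 3.34e-07). Cd207, langerin of epidermal Langerhans cells and dermal dendritic cells, which is in none of the lists, stood at 0.692, 0.0986, 0.380 and 0.333 CPM in jejunal nodes, against 11.5, 7.37, 9.47 and 9.42 CPM in inguinal nodes. All inguinal libraries were above all jejunal ones, of which library 2 was the lowest (log2 fold change -4.62, SE 0.400, adjusted p = 1.57e-07). Of 12 migratory dendritic cell genes tested, 5 were called higher and 2 lower, with a median log2 fold change of 0.28. Il4i1, an amino acid oxidase of mature dendritic cells, had 741 ± 165 CPM in jejunal and 344 ± 22.9 CPM in inguinal nodes (log2 fold change 1.11, SE 0.130, adjusted p = 2.44e-06). Ccr7, the receptor that brings them to the node, had 818 ± 92.4 CPM in jejunal and 557 ± 50.9 CPM in inguinal nodes (log2 fold change 0.56, SE 0.0829, adjusted p = 4.05e-05). Of 11 class II presentation genes tested, 3 were called higher and 0 lower, with a median log2 fold change of 0.18. That was 27.3% of the list, against 20.9% of all genes, and 5 were called higher with the replicate block. The class II chains Cd74 and H2-Aa were not called, with 6423 ± 611 CPM in jejunal and 5658 ± 302 CPM in inguinal nodes for Cd74.

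Innate lymphoid genes of type 2 and of type 3 were both called more often higher than lower in jejunal nodes. Of 15 type 2 innate lymphoid genes tested, 7 were called higher and 1 lower, with a median log2 fold change of 0.45. The lower count was 2 without jejunal library 1, with only the 2 groups in the fit and with the replicate block. Il1rl1, the receptor for Il33, stood at 38.4, 26.5, 30.3 and 31.8 CPM in jejunal nodes, against 7.49, 7.16, 6.77 and 8.59 CPM in inguinal nodes. The groups were far apart (log2 fold change 2.08, SE 0.148, adjusted p = 3.69e-09). Il17rb, the receptor for the tuft cell cytokine Il25, had 74.9, 67.8, 70.1 and 75.6 CPM in jejunal nodes, against 20.2, 14.6, 16.5 and 15.1 CPM in inguinal nodes (log2 fold change 2.12, SE 0.124, adjusted p = 2.35e-10). Arg1, arginase 1, had 9.53 ± 2.44 CPM in jejunal and 0.737 ± 0.108 CPM in inguinal nodes (log2 fold change 3.68, SE 0.158, adjusted p = 4.89e-12). Klrg1, a lectin of activated cells, had 13.99 ± 3.73 CPM in jejunal and 4.24 ± 0.742 CPM in inguinal nodes (log2 fold change 1.72, SE 0.178, adjusted p = 5.86e-07). Ptgdr2, the prostaglandin D2 receptor, went the other way with 0.290 ± 0.0375 CPM in jejunal and 3.53 ± 0.494 CPM in inguinal nodes (log2 fold change -3.60, SE 0.198, adjusted p = 1.45e-10). Of 13 type 3 innate lymphoid genes tested, 6 were called higher and 1 lower, with a median log2 fold change of 0.47. Il22, the cytokine that acts on gut epithelium, stood at 1.33, 0.607, 3.76 and 1.45 CPM in jejunal nodes, against 0, 0.0585, 0.0408 and 0 CPM in inguinal nodes. A pair of inguinal libraries had no count, and jejunal library 3 was the high one (log2 fold change 5.90, SE 0.914, adjusted p = 1.43e-05). Its log2 fold change was 5.24 without jejunal library 3 and 6.86 without inguinal library 2.

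Natural killer and granzyme genes were lower in jejunal nodes where they were called. Of 22 natural killer and granzyme genes tested, 0 were called higher and 13 lower, with a median log2 fold change of -0.54. Gzmc, a granzyme, stood at 2.51, 3.47, 3.599 and 3.36 CPM in jejunal nodes, against 33.4, 34.7, 34.9 and 43.2 CPM in inguinal nodes (log2 fold change -3.50, SE 0.156, adjusted p = 9.71e-12). Prf1, perforin, had 26.1 ± 4.26 CPM in jejunal and 49.9 ± 7.91 CPM in inguinal nodes (log2 fold change -0.93, SE 0.124, adjusted p = 1.22e-05). The activating receptor gene Ncr1 had 60.2 ± 4.05 CPM in jejunal and 85.7 ± 7.57 CPM in inguinal nodes (log2 fold change -0.51, SE 0.0912, adjusted p = 2.99e-04). Gzma had 56.5 ± 8.06 CPM in jejunal and 95.9 ± 22.1 CPM in inguinal nodes (log2 fold change -0.76, SE 0.160, adjusted p = 0.00145). Among the lymphocyte list, Cd4, a gene that macrophages transcribe too, stood lower at 189 ± 27.3 CPM in jejunal and 300.4 ± 23.5 CPM in inguinal nodes (log2 fold change -0.67, SE 0.119, adjusted p = 2.97e-04).

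Interferon-induced genes were higher in jejunal nodes nearly throughout the list. Of 21 interferon response genes tested, 19 were called higher and 0 lower, with a median log2 fold change of 0.81. Their summed level was 2560, 4147, 2897 and 3928 CPM in jejunal libraries 1 to 4, against 1704, 2349, 1688 and 2184 CPM in inguinal libraries 1 to 4. Every jejunal library was above every inguinal one, with libraries 2 and 4 high in both groups. Isg15, a ubiquitin-like antiviral protein, stood at 80.6, 133, 84.4 and 139 CPM in jejunal nodes, against 32.1, 52.9, 27.6 and 41.9 CPM in inguinal nodes (log2 fold change 1.5, SE 0.243, adjusted p = 1.27e-04). Oasl1, which restrains interferon synthesis, had 62.2, 111, 64.6 and 105 CPM in jejunal nodes, against 15.2, 29.3, 17.6 and 26.01 CPM in inguinal nodes (log2 fold change 1.96, SE 0.228, adjusted p = 3.00e-06). Ifi44 had 59.4 ± 14.1 CPM in jejunal and 25.5 ± 5.75 CPM in inguinal nodes (log2 fold change 1.22, SE 0.209, adjusted p = 2.12e-04). Rsad2, the antiviral enzyme viperin, had 73.9 ± 25.1 CPM in jejunal and 34.6 ± 6.78 CPM in inguinal nodes (log2 fold change 1.09, SE 0.232, adjusted p = 0.00169). Without both jejunal library 2 and inguinal library 1, 9 members were called higher. Of 16 interferon-gamma GTPase genes tested, 9 were called higher and 0 lower, with a median log2 fold change of 0.38. Of these, Tgtp1 had 151 ± 11.5 CPM in jejunal and 79.6 ± 8.29 CPM in inguinal nodes (log2 fold change 0.92, SE 0.124, adjusted p = 1.29e-05), and 3 members were called higher without both libraries. Ifng itself, the cytokine that induces them, was lower at 2.002 ± 0.311 CPM in jejunal and 3.56 ± 0.323 CPM in inguinal nodes (log2 fold change -0.83, SE 0.217, adjusted p = 0.00867).

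Genes of sterol synthesis were higher in jejunal nodes with little spread. Of 18 sterol synthesis genes tested, 16 were called higher and 0 lower, with a median log2 fold change of 0.77. Their summed level was 906, 1003, 944 and 1005 CPM in jejunal libraries 1 to 4, against 576, 571, 568 and 554 CPM in inguinal libraries 1 to 4. Sqle, squalene epoxidase, had 28.6, 29.3, 28.7 and 28.2 CPM in jejunal nodes, against 12.1, 11.2, 10.5 and 9.53 CPM in inguinal nodes. The groups were well apart (log2 fold change 1.41, SE 0.0907, adjusted p = 6.64e-10). Idi1, isopentenyl diphosphate isomerase, had 106 ± 5.38 CPM in jejunal and 42.8 ± 2.503 CPM in inguinal nodes (log2 fold change 1.30, SE 0.145, adjusted p = 1.28e-06). Of the lipid uptake and export list, the cholesterol exporter gene Abcg1 was lower at 287 ± 62.4 CPM in jejunal and 461 ± 36.7 CPM in inguinal nodes (log2 fold change -0.68, SE 0.152, adjusted p = 0.00237). Among genes of the aryl hydrocarbon receptor, a sensor of dietary and microbial ligands, 5 of 8 tested were higher and 0 lower, with a median log2 fold change of 0.38. Ahrr, its repressor and target, had 18.1, 26.5, 18.98 and 26.9 CPM in jejunal nodes, against 9.11, 8.77, 9.71 and 9.08 CPM in inguinal nodes (log2 fold change 1.30, SE 0.135, adjusted p = 5.04e-07). Cyp1b1, another target, had 301 ± 32.1 CPM in jejunal and 185 ± 10.8 CPM in inguinal nodes (log2 fold change 0.70, SE 0.106, adjusted p = 4.55e-05). The receptor Ahr was not called at 60.2 ± 5.55 CPM in jejunal and 57.2 ± 0.648 CPM in inguinal nodes.

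Further genes stood at the ends of the fold change scale, among the 15 highest and the 15 lowest of the called genes that reached 5 CPM in the higher group and did not overlap. Lrrn2, a leucine-rich repeat membrane protein, stood at 14.5, 16.1, 18.8 and 19.7 CPM in jejunal nodes, against 0.578, 0.478, 0.516 and 0.504 CPM in inguinal nodes (log2 fold change 5.06, SE 0.133, adjusted p = 9.97e-15). Glp2r, the receptor for the gut hormone GLP-2, had 9.73, 6.14, 10.3 and 9.89 CPM in jejunal nodes, against 0.766, 0.559, 0.551 and 0.523 CPM in inguinal nodes (log2 fold change 3.91, SE 0.175, adjusted p = 8.99e-12). Vipr2, a receptor for vasoactive intestinal peptide, had 20.8, 15.8, 17.96 and 20.97 CPM in jejunal nodes, against 1.25, 1.45, 1.26 and 1.63 CPM in inguinal nodes (log2 fold change 3.76, SE 0.126, adjusted p = 1.50e-13). Ido1, which degrades tryptophan, had 8.25, 8.41, 8.09 and 8.45 CPM in jejunal nodes, against 0.880, 0.797, 0.771 and 0.614 CPM in inguinal nodes (log2 fold change 3.43, SE 0.100, adjusted p = 1.93e-14). Each was well above the inguinal libraries in every jejunal library. At the other end, Mup22, a major urinary protein gene whose near-identical relatives share reads, had 0.00994, 0.0247, 0 and 0.0242 CPM in jejunal nodes, against 18.6, 17.1, 12.2 and 18.2 CPM in inguinal nodes. The secreted lipid-binding protein genes Bpifb2 and Bpifb3 had 0.0363 CPM or less and 0.00605 CPM or less in jejunal libraries, against 5.902 to 11.1 CPM and 8.21 to 14.3 CPM in inguinal libraries. Bpifb3 and Mup22 each had a jejunal library with no count. Cyp2f2, a cytochrome P450 best known in airway and liver, had 0.719, 1.78, 0.607 and 0.333 CPM in jejunal nodes, against 38.5, 25.9, 29.9 and 31.9 CPM in inguinal nodes (log2 fold change -5.19, SE 0.343, adjusted p = 6.05e-09), with -5.81 without jejunal library 2. Cd300ld4, an immunoglobulin-like myeloid receptor gene, had 4.68, 4.93, 4.79 and 5.69 CPM in jejunal nodes, against 106, 121, 111 and 126 CPM in inguinal nodes (log2 fold change -4.53, SE 0.132, adjusted p = 5.25e-14).

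Markers of tissues that border a node were followed in the same fit. Of 15 adipocyte genes tested, 6 were called higher and 1 lower, with a median log2 fold change of 1.33. Adipoq, the adipocyte hormone adiponectin, stood at 48.5, 163, 46.5 and 43.3 CPM in jejunal nodes, against 51.8, 5.81, 6.17 and 16.4 CPM in inguinal nodes, so the groups overlapped. Without jejunal library 2 the count of higher adipocyte genes was 1, without inguinal library 1 it was 12, and without inguinal library 2, 3 or 4 it was 2. With only the 2 groups in the fit 3 were called higher, and the 1 lower call was lost without inguinal library 1, with DESeq2, with limma-voom and with only the 2 groups. Of 11 smooth muscle genes tested, 0 were called higher and 3 lower, with a median log2 fold change of -0.80. Synpo2, an actin-binding protein of muscle, had 128, 128, 136 and 132 CPM in jejunal nodes, against 288, 292, 309.8 and 328 CPM in inguinal nodes (log2 fold change -1.21, SE 0.0642, adjusted p = 4.31e-11). The contractile gene Myh11 was not called at 66.3 ± 4.02 CPM in jejunal and 125 ± 9.52 CPM in inguinal nodes. The shared fit carries the spread of the duodenal libraries, where Myh11 had 229 ± 176 CPM. Fitted on the jejunal and inguinal libraries alone, 8 smooth muscle genes were called lower and 1 higher. Of 10 mesothelial genes tested, 5 were called higher and 0 lower, with a median log2 fold change of 1.36. The higher count was 1 without jejunal library 2, 2 or 3 without any 1 of the inguinal libraries, and 2 with limma-voom or with only the 2 groups in the fit. Of 18 pancreatic acinar genes tested, 1 was called higher and 0 lower, with a median log2 fold change of 2.97. With only the 2 groups in the fit 2 were called higher, and with DESeq2 3. The duodenal libraries, where Cela1 of this list had 1186 ± 1473 CPM, are part of the shared fit here too. Why few acinar genes were called was not tested. The called gene was Ctrc, a chymotrypsin gene, which stood at 5.34, 6.49, 5.61 and 8.14 CPM in jejunal nodes, against 0.831, 0.686, 0.802 and 0.859 CPM in inguinal nodes (log2 fold change 3.01, SE 0.358, adjusted p = 5.05e-06). Cpa1 was high in jejunal library 1 alone, at 6.52, 0.296, 0.116 and 0.188 CPM in jejunal nodes, against 0.130, 0.176, 0.189 and 0.123 CPM in inguinal nodes. Of 13 cell division genes tested, 0 were called, and 1 was without jejunal library 2. The part of bordering tissue in the differences given here was not tested.

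**Figure D4:**
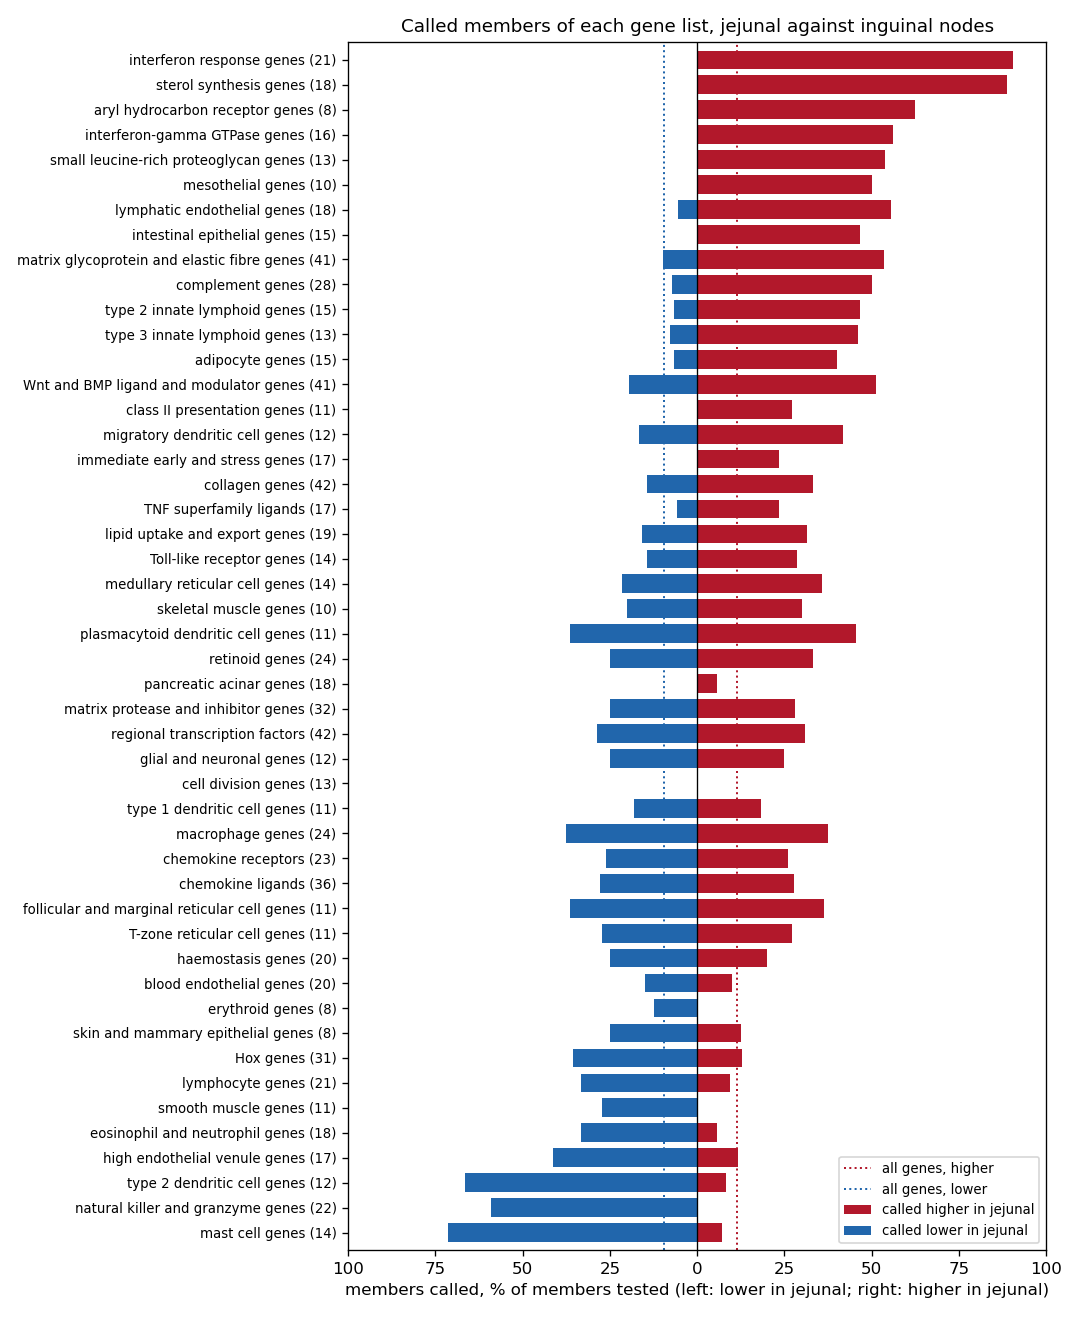
Share of the tested members of each of 48 gene lists that were called higher (red, right) or lower (blue, left) in jejunal nodes, with the number tested in parentheses; dotted lines mark the shares over all genes, 11.4% higher and 9.54% lower. Interferon response and sterol synthesis genes extend furthest right and mast cell and type 2 dendritic cell genes furthest left.

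The jejunal node was then set against the mean of the duodenal, ileal and ceco-colonic nodes. Both comparisons use the same jejunal libraries and the same fit of all 20 libraries. Of 29411 genes, 521 were called (1.77%), 368 higher in jejunal nodes (1.25%) and 153 lower (0.52%). The total was 236 without jejunal library 2, the higher calls 563 without duodenal library 3, and the lower calls 88 without jejunal library 3. Most of what set the jejunal node apart from the inguinal one did not pass here. Nkx2-3 had 21.7 ± 1.84 CPM in jejunal, 21.6 ± 2.51 in duodenal, 22.03 ± 1.29 in ileal and 22.2 ± 0.520 in ceco-colonic nodes. Aldh1a2 had 171 ± 28.9 CPM in jejunal, 147 ± 24.3 in duodenal, 218 ± 46.5 in ileal and 169 ± 13.7 in ceco-colonic nodes. Neither was called between the jejunal and the other gut nodes.

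Macrophage and lymphatic genes called between the jejunal node and the mean of the other gut nodes were mostly higher in the jejunal node, and the ileal node was close to the jejunal one for several of them. Of 24 macrophage genes tested, 8 were higher and 2 lower, and the 18 genes of lymphatic endothelium gave 8 higher calls and 1 lower call. Without jejunal library 2 these higher counts were 4 and 3, and without jejunal library 3 the lymphatic count was 5. Both lower counts were 0 without jejunal library 1 or 2, among other single libraries left out. Other lists leaned the same way. Of 20 blood endothelial genes 5 were called higher, of 28 complement genes 5, and of 41 Wnt and BMP genes 6. Without jejunal library 2 these counts were 1, 0 and 3. The blood endothelial count was also 1 without jejunal library 3. It was 3 without jejunal library 1 or 4, without ceco-colonic library 4, or with only the gut nodes in the fit. Lower calls in the blood endothelial, complement and Wnt and BMP lists were 0 in the main fit. Of these lists, in that order, 1, 1 and 5 lower members had an unadjusted p under 0.05 in edgeR. DESeq2 called 4 Wnt and BMP genes lower. Cd163 ranged from 25.7 to 62.1 CPM in jejunal libraries (median 34.5), against 3.14 to 25.04 CPM in the 12 other gut libraries (median 16.8). Its 4 jejunal libraries did not overlap the other 12, as held for 25 of all genes (0.085%) (log2 fold change 1.73, SE 0.198, adjusted p = 6.54e-05). Lyve1 had 358 ± 50.4 CPM in jejunal, 190.4 ± 62.4 in duodenal, 371 ± 44.96 in ileal and 108 ± 23.8 in ceco-colonic nodes (log2 fold change 0.86, SE 0.146, adjusted p = 0.00212). Marco had 1451 ± 91.04 CPM in jejunal, 933 ± 181 in duodenal, 1504 ± 187 in ileal and 704 ± 83.6 in ceco-colonic nodes (log2 fold change 0.54, SE 0.105, adjusted p = 0.00617). Msr1, another scavenger receptor, had 116 ± 10.7 CPM in jejunal, 73.2 ± 16.2 in duodenal, 120.2 ± 5.76 in ileal and 59.02 ± 4.15 in ceco-colonic nodes (log2 fold change 0.53, SE 0.0951, adjusted p = 0.00362). F8 was higher as well (log2 fold change 0.78, SE 0.124, adjusted p = 0.0013).

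Targets of the aryl hydrocarbon receptor and sterol genes also passed. Of 8 aryl hydrocarbon receptor genes, 3 were higher and 0 lower. Cyp1a1, its best-known target, had 2.21 ± 0.406 CPM in jejunal, 1.099 ± 0.185 in duodenal, 0.811 ± 0.236 in ileal and 0.412 ± 0.162 in ceco-colonic nodes (log2 fold change 1.63, SE 0.196, adjusted p = 9.07e-05). Beside the inguinal node it had 2.696, 2.397, 1.92 and 1.83 CPM in jejunal nodes, against 1.55, 1.11, 0.914 and 1.22 CPM in inguinal nodes (log2 fold change 0.89, SE 0.240, adjusted p = 0.0107). Cyp1b1 had 301 ± 32.1 CPM in jejunal, 201 ± 28.1 in duodenal, 301 ± 43.3 in ileal and 98.3 ± 7.33 in ceco-colonic nodes (log2 fold change 0.73, SE 0.0865, adjusted p = 9.82e-05). Of 18 sterol synthesis genes, 6 were higher and 0 lower, and 3 were higher without jejunal library 2 or without duodenal libraries 1 and 2. Il17rb had 72.1 ± 3.77 CPM in jejunal, 67.6 ± 13.4 in duodenal, 60.7 ± 6.501 in ileal and 26.4 ± 2.91 in ceco-colonic nodes (log2 fold change 0.60, SE 0.101, adjusted p = 0.00221). Ido1 had 8.301 ± 0.167 CPM in jejunal, 6.75 ± 0.642 in duodenal, 6.41 ± 0.412 in ileal and 5.72 ± 0.513 in ceco-colonic nodes (log2 fold change 0.40, SE 0.0778, adjusted p = 0.00648). Siglece, an inhibitory receptor of myeloid cells, had 13.4 ± 0.938 CPM in jejunal, 8.99 ± 0.582 in duodenal, 11.4 ± 0.383 in ileal and 10.1 ± 1.01 in ceco-colonic nodes (log2 fold change 0.40, SE 0.0702, adjusted p = 0.00314).

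Some of the genes lower in the jejunal node than in the other gut nodes were lower than in the inguinal node too, such as Cxcl13, Ccl8 and Gzmc. Madcam1 lay between, lower than in the other gut nodes and higher than in the inguinal node. For Ccl8 and Gzmc the ceco-colonic node held the high values and the duodenal node was below the jejunal one. Cxcl13 ranged from 4.68 to 19.7 CPM in jejunal libraries (median 10.8), against 13.4 to 83.5 CPM in the other gut libraries (median 34.9) (log2 fold change -1.60, SE 0.237, adjusted p = 0.0022). Its ileal libraries, at 13.4 to 19.3 CPM, overlapped the jejunal ones, and Cxcl13 was not called against the ileal node. Duodenal libraries held 25.6 to 49.1 CPM of it and ceco-colonic libraries 53.5 to 83.5 CPM. Ccl8 had 2.68 ± 0.398 CPM in jejunal, 2.24 ± 0.660 in duodenal, 4.55 ± 1.703 in ileal and 41.6 ± 13.4 in ceco-colonic nodes (log2 fold change -1.48, SE 0.216, adjusted p = 0.00169). Gzmc had 3.24 ± 0.492 CPM in jejunal, 2.61 ± 0.494 in duodenal, 4.81 ± 0.798 in ileal and 20.03 ± 3.63 in ceco-colonic nodes (log2 fold change -0.97, SE 0.129, adjusted p = 6.97e-04). Madcam1 had 49.1 ± 10.6 CPM in jejunal, 72.4 ± 23.2 in duodenal, 64.96 ± 9.76 in ileal and 128 ± 15.4 in ceco-colonic nodes (log2 fold change -0.78, SE 0.148, adjusted p = 0.00953), a call lost without jejunal library 2, its low library (adjusted p = 0.0591). Of 31 Hox genes tested, 2 were higher and 5 lower, and the jejunal levels of Hoxa10 and Hoxc9 lay between the duodenal and the ileal ones. Hoxa10 had 0.299 ± 0.0637 CPM in jejunal, 0.0968 ± 0.0304 in duodenal, 0.632 ± 0.102 in ileal and 3.68 ± 0.547 in ceco-colonic nodes (log2 fold change -1.03, SE 0.151, adjusted p = 0.00124). Hoxc9 had 1.59 ± 0.116 CPM in jejunal, 0.665 ± 0.0958 in duodenal, 3.36 ± 0.579 in ileal and 5.18 ± 0.208 in ceco-colonic nodes (log2 fold change -0.51, SE 0.0973, adjusted p = 0.00799). Prph, an intermediate filament of peripheral neurons, ranged from 0.833 to 0.924 CPM in jejunal libraries, against 1.27 to 2.66 CPM in the other gut libraries, without overlap (log2 fold change -1.14, SE 0.119, adjusted p = 8.05e-05). Cxcr2, the neutrophil chemokine receptor, had 10.7 ± 1.61 CPM in jejunal, 15.01 ± 1.21 in duodenal, 14.7 ± 0.839 in ileal and 23.6 ± 4.41 in ceco-colonic nodes (log2 fold change -0.69, SE 0.105, adjusted p = 0.00169). Against the inguinal node it was not called.

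Few genes separated the jejunal node from the ileal one. Of 29411 genes, 20 were called between them (0.068%), 6 higher in jejunal nodes (0.0204%) and 14 lower (0.0476%). The total was 2 in a fit of these 8 libraries alone, 96 with DESeq2 and 38 with the replicate block. Without jejunal library 1 it was 7, without ileal library 1 it was 8, and without ileal library 2 or 4 it was 10. Of the 18 genes given with a fold change against the other gut nodes, 4 were called here: Cyp1a1 higher, and Hoxa10, Hoxc9 and Prph lower. Cd163, Lyve1, Marco and Cyp1b1 were not called against the ileal node. For Cd163 the means were 39.2 ± 15.9 CPM in jejunal and 22.6 ± 2.88 CPM in ileal nodes (log2 fold change 0.79, adjusted p = 0.551). Of 31 Hox genes, 4 were called lower in jejunal than in ileal nodes. Hoxc10, of the posterior C cluster, had 0.154 ± 0.0835 CPM in jejunal, 0.0236 ± 0.0331 in duodenal, 1.17 ± 0.453 in ileal and 6.73 ± 0.468 in ceco-colonic nodes (log2 fold change -2.95, adjusted p = 0.00389). Hoxc9 was lower as well (log2 fold change -1.08, adjusted p = 5.46e-04), as its levels above show. Of 18 sterol synthesis genes, 3 were called higher. Sqle had 28.7 ± 0.455 CPM in jejunal, 30.2 ± 2.68 in duodenal, 19.6 ± 2.26 in ileal and 20.8 ± 2.21 in ceco-colonic nodes (log2 fold change 0.55, adjusted p = 0.0218). Cyp1a1 was higher in jejunal than in ileal nodes (log2 fold change 1.45, adjusted p = 0.0246). The calls of Sqle and Cyp1a1 were lost without jejunal library 1, among other single libraries left out, and those of Hoxc10, Hoxc9, Sqle and Cyp1a1 were all lost in the fit of these 8 libraries alone, with fold changes close to those given.

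**Figure D5:**
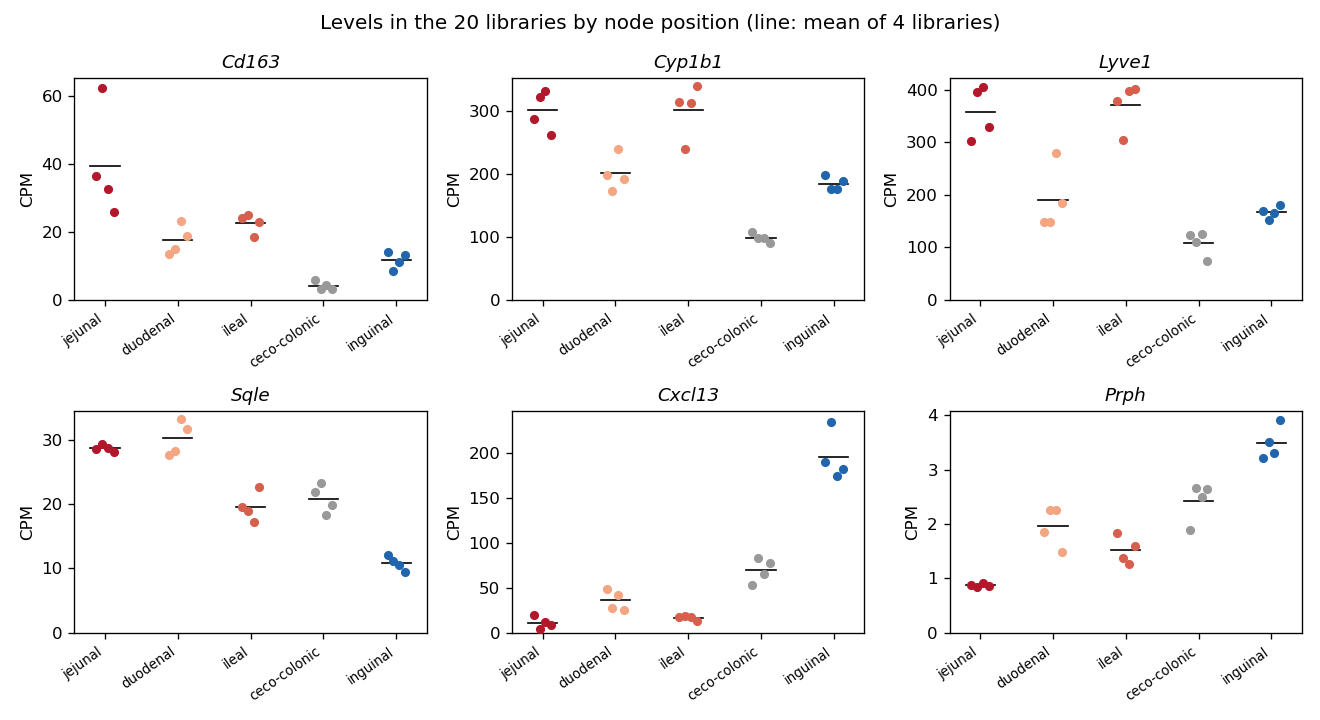
CPM of 6 genes in each library of the jejunal, duodenal, ileal, ceco-colonic and inguinal node, with a line at the mean of 4 libraries; axes start at 0. Cd163 is highest in jejunal libraries (25.7 to 62.1 CPM), Lyve1 and Cyp1b1 are at a similar height in jejunal and ileal libraries, and Cxcl13 is highest in inguinal libraries, with jejunal and ileal libraries overlapping at the low end.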

How the data were processed

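The authors deposited a gene table of expected counts (estimated counts per gene, not whole numbers) and, for each library, transcript tables of estimated counts and TPM. The submitters' processing notes name kallisto, limma and edgeR as tools and GRCm39 and mm10 as builds, with no roles. Checked over 12483 genes, 99.7% of the deposited gene values equalled length-scaled sums of the deposited TPM within 0.001 on the log2 scale, so they are estimates scaled by transcript length.

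Estimates were rounded, filtered (filterByExpr, minimum count 10, minimum total 15, 29411 of 56258 genes kept), TMM-scaled and fitted in edgeR 4.0.16 (R 4.3.3) as 1 quasi-likelihood model of all 20 libraries with 1 mean per position. A gene counted as called when its p, adjusted over all tested genes after Benjamini and Hochberg, was under 0.05. The SE of a log2 fold change is model-based. CPM are TMM-scaled; the prior count of log2 CPM was 2. The procedure was tested on simulated data.

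The members and the 48 gene lists (889 symbols, 847 tested) were chosen with earlier results of these data known, so a list's direction is no independent evidence. Genes named were 33 fixed ones, the 15 highest and 15 lowest called genes at 5 CPM or more without overlap, up to 6 called and the 2 most abundant uncalled members at 1 CPM per list, and genes whose jejunal libraries did not overlap the other gut libraries; not all are given, and some are not reported here. Gene models, pseudogenes and receptor segments are not named. Alternatives were RLE size factors, no filter, DESeq2 1.42.0, limma-voom (limma 3.58.1), only the groups compared, the replicate number as a block, each library left out and plain sums of transcript counts. Depth was 148.2 to 304.6 M estimated counts, and at low CPM counting error adds to the spread. Coordinates are given only for RefSeq promoters (GRCm38.p6), since the build of the tables is not stated.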

Additional observations from a re-analysis of the deposited data

Results flagged for a closer look

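Within a group of 4 libraries, a library was set apart when its gap to the nearest of the others took a larger share of the group's range than Dixon's 95% critical value allows. Chance sets about 1 in 20 groups apart. Of 290 groups tested, the jejunal and the inguinal libraries of each gene given with a fold change, 18 were set apart. In the jejunal group the library apart was library 2 for 5 genes: Madcam1 at 33.3 CPM (53.01 to 55.6 CPM in the others), Grem1 at 45.8 CPM (83.7 to 87.99 CPM), Glp2r at 6.14 CPM (9.73 to 10.3 CPM), Wif1 at 0.345 CPM (0.697 to 0.752 CPM) and Cd209g at 5.69 CPM (2.57 to 2.77 CPM). It was the lowest library for the first 4 genes and the highest for Cd209g. Ccr10 was lowest in jejunal library 1 at 0.808 CPM (0.942 to 0.947 CPM) and Cpa3 in jejunal library 4 at 0.309 CPM (0.508 to 0.522 CPM).

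In the inguinal group, library 2 was the highest for Ccr2 at 236 CPM (190.1 to 197 CPM) and for Gzma at 129 CPM (81.7 to 87.2 CPM), and the lowest for Flt4 at 89.7 CPM (103 CPM in the others) and for Mfap4 at 0.218 CPM (0.302 to 0.3102 CPM). Library 1 was the lowest for Ier3 at 9.81 CPM (12.8 to 13.4 CPM). It was the highest for Clec9a at 65.6 CPM (53.1 to 54.6 CPM) and for Glp2r at 0.766 CPM (0.523 to 0.559 CPM). Library 3 was the highest for Cd209g at 38.2 CPM (27.5 to 29.1 CPM) and for Emx2 at 2.001 CPM (1.72 to 1.75 CPM). Library 4 was the highest for Gzmc at 43.2 CPM (33.4 to 34.9 CPM). It was also the highest for Cdh17 at 0.788 CPM (0.647 to 0.664 CPM).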

How the results depend on the processing

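Between jejunal and inguinal nodes the number of called genes stayed within 1.5 times of 6157 under every alternative run, from 4882 without jejunal library 2 and inguinal library 1, a fit chosen after seeing the data, to 6908 with the replicate block. The labels do not say that replicate numbers pair the libraries. The deviations of same-numbered jejunal and inguinal libraries correlated at 0.0508, -0.0816, 0.081 and 0.091, none above the 0.1 asked of every pair, and 5 of 8 libraries correlated best with their own number. With duodenal libraries the same-numbered jejunal correlations were 0.0711 to 0.357, with ileal 0.0323 to 0.162 and with ceco-colonic -0.0863 to 0.252, so no node passed in every pair, and a shared source was not tested. Leaving out 1 library gave 5146 to 5717 calls. Of 141 called genes with a fold change, 139 kept their call in all 16 alternatives. Ccr9 lost it also in the fit of only the 2 groups, and no named fold change reversed. Between jejunal and other gut nodes DESeq2 called 925 genes, 592 higher and 333 lower, against 521 with edgeR, and the cause was not tested. Leaving out 1 library gave 236 to 752 calls there, 173 to 563 higher and 63 to 190 lower. The replicate block gave 694 and, without duodenal libraries 1 and 2, which held pancreatic transcripts, 424 were called. Between jejunal and ileal nodes 20 genes were called with edgeR, 96 with DESeq2, 38 with the replicate block, 2 with only the 2 groups in the fit and 7 to 21 without 1 library, and the cause was not tested. Depth limits the lowest levels, such as Bpifb3, Mup22 and Emx2 in jejunal nodes.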

Other observations

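Innate sensors and cytokines of the TNF family differed between the nodes member by member. Of 14 Toll-like receptor genes tested, 4 were called higher and 2 lower, with a median log2 fold change of 0.02. The lower count was 4 without jejunal library 3. Tlr1, which pairs with Tlr2 to sense bacterial lipopeptides, stood at 72.2, 78.6, 78.7 and 67.99 CPM in jejunal nodes, against 35.7, 43.5, 38.1 and 40.8 CPM in inguinal nodes (log2 fold change 0.91, SE 0.0874, adjusted p = 1.62e-07). Tlr12 was higher as well, at 71.4 ± 2.65 CPM in jejunal and 41.04 ± 4.37 CPM in inguinal nodes (log2 fold change 0.80, SE 0.0737, adjusted p = 9.56e-08). Tlr13 was higher too, at 61.4 ± 4.12 CPM in jejunal and 40.2 ± 2.06 CPM in inguinal nodes (log2 fold change 0.61, SE 0.0739, adjusted p = 3.21e-06). Tlr5, the flagellin receptor, was lower at 10.8 ± 1.498 CPM in jejunal and 18.8 ± 1.42 CPM in inguinal nodes (log2 fold change -0.80, SE 0.114, adjusted p = 2.58e-05). Of 17 TNF superfamily ligands tested, 4 were called higher and 1 lower, with a median log2 fold change of 0.03. That was 29.4% of the list, against 20.9% of all genes. The lower count was 2 without jejunal library 4 or inguinal library 3, and likewise with DESeq2, sums of transcript counts, the replicate block or only the 2 groups in the fit. Tnfsf10, the death ligand TRAIL, had 102 ± 3.55 CPM in jejunal and 73.9 ± 1.48 CPM in inguinal nodes (log2 fold change 0.46, SE 0.0548, adjusted p = 2.30e-06). Ltb, lymphotoxin beta, had 150.4 ± 27.2 CPM in jejunal and 108 ± 5.85 CPM in inguinal nodes (log2 fold change 0.48, SE 0.108, adjusted p = 0.00287). Of 11 plasmacytoid dendritic cell genes tested, 5 were called higher and 4 lower, with a median log2 fold change of -0.32. The higher count was 3 without jejunal library 4, inguinal library 1 or inguinal library 4, and 2 without inguinal library 3. Spib, a transcription factor of these cells, had 143 ± 16.5 CPM in jejunal and 102 ± 4.87 CPM in inguinal nodes (log2 fold change 0.49, SE 0.0734, adjusted p = 4.52e-05). Tcf4, their defining factor, was lower at 107 ± 3.88 CPM in jejunal and 150.2 ± 6.43 CPM in inguinal nodes (log2 fold change -0.49, SE 0.0649, adjusted p = 1.01e-05).

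The remaining lists are given by their counts. Of 21 lymphocyte genes tested, 2 were called higher and 7 lower, with a median log2 fold change of -0.34. Without jejunal library 1 or 4 or inguinal library 1, 3 or 4, or without a filter on low counts, 1 was called higher. Lck, a kinase of T and natural killer cells, was lower at 57.1 ± 4.72 CPM in jejunal and 78.7 ± 6.399 CPM in inguinal nodes (log2 fold change -0.46, SE 0.0921, adjusted p = 8.57e-04). Ms4a1, a B cell antigen, was higher at 2.92 ± 0.236 CPM in jejunal and 0.649 ± 0.0780 CPM in inguinal nodes (log2 fold change 2.17, SE 0.125, adjusted p = 1.53e-10). Of 20 haemostasis genes tested, 4 were called higher and 5 lower, with a median log2 fold change of 0.05. With only the 2 groups in the fit, 7 were called higher. Of 19 lipid uptake and export genes tested, 6 were called higher and 3 lower, with a median log2 fold change of 0.21. Plin2, which coats lipid droplets, had 215 ± 14.1 CPM in jejunal and 132 ± 4.84 CPM in inguinal nodes (log2 fold change 0.70, SE 0.0770, adjusted p = 9.36e-07). Among immediate early and stress genes, 4 of 17 tested were higher and 0 lower, with a median log2 fold change of 0.37. That was 23.5% of the list, against 20.9% of all genes. With the replicate block, 7 were called higher. Ier3, an immediate early gene, was higher at 25.9 ± 1.898 CPM in jejunal and 12.2 ± 1.64 CPM in inguinal nodes (log2 fold change 1.08, SE 0.0933, adjusted p = 3.80e-08). Of 15 intestinal epithelial genes tested, 7 were called higher and 0 lower, with a median log2 fold change of 0.98. The higher count was 4 with only the 2 groups in the fit. Cdh17, a cadherin of intestinal epithelium, had 1.53 ± 0.192 CPM in jejunal and 0.689 ± 0.0663 CPM in inguinal nodes (log2 fold change 1.15, SE 0.112, adjusted p = 2.02e-07). Epcam, the general epithelial adhesion gene, was not called at 7.07 ± 0.456 CPM in jejunal and 7.23 ± 0.501 CPM in inguinal nodes. Of 8 skin and mammary epithelial genes tested, 1 were called higher and 2 lower, with a median log2 fold change of -0.08. With only the 2 groups in the fit 0 were called higher, and without a filter on low counts 4 were called lower. Trp63, the factor of basal epithelium, had 0.975 ± 0.162 CPM in jejunal and 2.73 ± 0.700 CPM in inguinal nodes (log2 fold change -1.48, SE 0.199, adjusted p = 1.39e-05). Of 10 skeletal muscle genes tested, 3 were called higher and 2 lower, with a median log2 fold change of 0.05. With sums of transcript counts 4 were called lower. Of 12 glial and neuronal genes tested, 3 were called higher and 3 lower, with a median log2 fold change of 0.49. The higher count was 1 without jejunal library 2 and 5 with sums of transcript counts. Of 8 erythroid genes tested, 0 were called higher and 1 lower, with a median log2 fold change of -0.34. With only the 2 groups in the fit 2 were called lower.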
